A study of Homo sapiens with 6 samples.

Results

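The simple epithelial keratins are the filament proteins of single-layered epithelia such as the lining of the colon, and 8 keratin genes were followed here: KRT7, KRT8, KRT18, KRT19, KRT20, KRT23, KRT80 and KRT86. They were taken as the rows whose Ensembl identifiers carry these symbols, and all 8 were found among 27264 gene rows, which also hold 19 other keratin genes. Messenger RNA was measured in 6 libraries made from DLD-1 cells, an established line of human colorectal cancer with epithelial character. The sample descriptions of all 6 also carry the tag TR21, whose meaning they do not state. The cells are 3 clones labelled ZEB2 WT (WT2, WT5 and WT37), and every clone was grown without DOX (labelled epithelial) and with DOX (labelled mesenchymal). DOX is the usual short form of doxycycline, and the title of the series names ZEB2, a zinc finger repressor of epithelial genes, as the mediator of an epithelial-to-mesenchymal transition (EMT). Each group therefore has 3 libraries, 1 per clone, and the series treats the clones as its biological replicates. Every library carries the ZEB2 WT label, so DOX given to cells with no such construct was not analysed here. ZEB2 itself went from 9 to 20 reads in WT2, from 5 to 9 in WT5 and from 3 to 22 in WT37 (log2 fold change with a clone term not past the threshold, edgeR adjusted p = 0.225). Reads come from gene ends, and a transgene without that end would go uncounted, so these reads check the labels only in part.

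Keratin filaments are built from pairs of a type I and a type II keratin, and the partners depend on each other for stability. KRT8 (type II) and KRT18 (type I) form the founding pair of simple epithelia, KRT19 is a further type I partner of KRT8, and KRT20 is a type I keratin of differentiated intestinal cells. Loss of these keratins and gain of vimentin is a textbook feature of EMT. KRT7, KRT80 and KRT86 are type II and KRT23 is type I. KRT7 is better known from ducts and glands than from colon, and KRT86 is a hair keratin by classification, so the name of the group does not describe every gene in it.

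ZEB proteins are known to bind DNA at a CACCT core. RefSeq windows around annotated gene starts (250 bases before to 50 after, GRCh38.p14) were searched for it. Windows were found for 2 of the 8 genes, KRT8 and KRT20. A stretch of each is shown because it holds the matches, which are in capitals, written 5′ to 3′ on the strand of the gene.
KRT8: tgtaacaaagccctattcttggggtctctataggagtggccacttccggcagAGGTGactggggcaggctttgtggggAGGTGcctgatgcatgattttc
KRT20: atcctgaagctaCAGGTGctccctcctgga
The KRT8 stretch is the 100 bases before the RefSeq start (chr12:52926470-52926569, minus strand). In GENCODE 29 it lies in an intron of 4 longer KRT8 transcripts and overlaps no exon. The KRT8 gene there reaches to 52949954, so this RefSeq start lies inside the gene. The regions around other KRT8 starts were not searched. The capitals mark AGGTG, the reverse complement of CACCT, beginning 48 and 22 bases before the start. The longer core CACCTG, or its reverse complement CAGGTG, was the motif planned for the search and was not in the KRT8 window. The search for the shorter CACCT was added to that plan. The KRT20 stretch (chr17:40885193-40885222, minus strand) lies in the UTR of the first exon, and its capitals mark CAGGTG, which begins at base 33 of the transcript as RefSeq places its start. Within CAGGTG the shorter form AGGTG also matches, and KRT20 had a further AGGTG 94 bases before its start. Of 35116 windows of the same length, 20.6% held CACCTG on either strand and 51.6% held CACCT at least once. CACCT occurred 2 or more times in 17.9% of whole windows and in 13.6% of the stretches of 250 bases before the start. For the 100 bases before the start, the stretch shown for KRT8, the share was 2.6%. A match is a description of the letters and not a binding site.

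Transcript levels are given as CPM, reads per 1000000 reads counted in genes. The libraries read the 3' end of each transcript, so a transcript gives 1 fragment whatever its length. Reads with several places were not counted in genes, and the keratins share end sequence with other genes to different degrees (given below). Levels, ranks and ratios between genes are therefore those of counted reads and compare only roughly. Reads in genes numbered 5440093 to 7164426 per library. KRT18, KRT8 and KRT19 carried nearly all keratin signal and took 97.5% to 98.5% of the reads of the 8 genes. Averaged over the 6 libraries, KRT18 ranked 35, KRT8 118 and KRT19 127 among all gene rows. KRT80 followed with a mean of 60.7 CPM and KRT20 with 16.1 CPM. KRT7, KRT86 and KRT23 had means of 1.47, 0.733 and 0.121 CPM and were removed by the low-count filter, so 5 of the 8 genes were tested among 11732. The share of gene reads taken by the 8 genes together went from 0.606% to 0.382% in WT2, from 0.467% to 0.385% in WT5 and from 0.470% to 0.279% in WT37. In these bulk samples, fewer cells with a keratin and less keratin RNA per cell cannot be told apart.

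**Figure D1:**
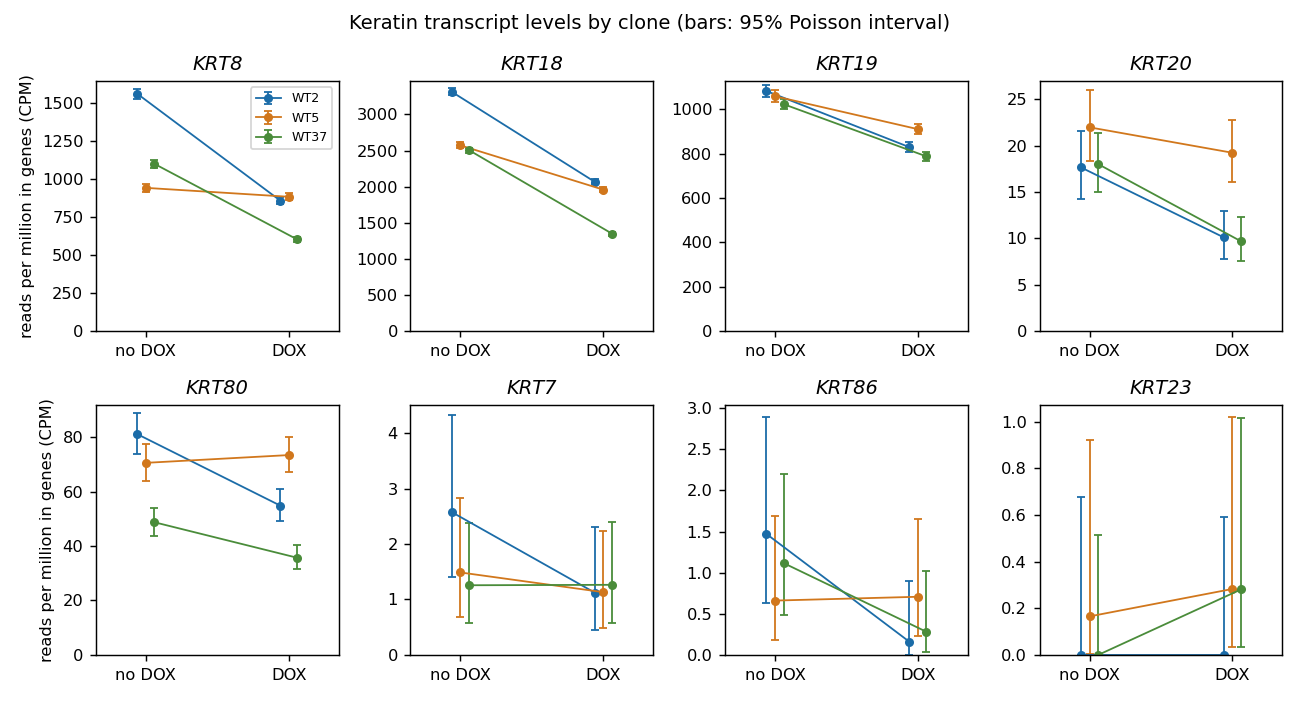
Level of each keratin gene in CPM (vertical axis, linear from 0, a separate scale per gene) without and with DOX. Points are single libraries, lines join the libraries of a clone (WT2 blue, WT5 orange, WT37 green), and bars are 95% Poisson intervals for counting error. KRT18 fell from between 2505 and 3311 to between 1351 and 2067, while the WT5 lines of KRT8 and KRT80 are nearly flat.

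With DOX, KRT18 was lower in every clone, and it was the 1 gene of the 8 that fell past the threshold when the clone was part of the model. KRT8 was lower by a similar amount on average but unevenly between clones, KRT19 was lower by a smaller and more even amount, and KRT20 and KRT80 were lower mainly in WT2 and WT37. In the fit with a clone term, 1 of the 5 tested genes fell and 0 rose (quasi-likelihood test of edgeR, p adjusted by Benjamini-Hochberg, threshold 0.05). Of all tested genes 0.639% fell, 0.656% rose and 1.3% changed in either direction. All 5 keratins had an unadjusted p under 0.05, as did 1510 of the 11732 tested genes. With a clone term DESeq2 called 1 of the 5 keratins and limma-voom 2, against 133 and 185 over all genes. These counts over all genes also stand beside the gene lists below, which used the same fits. In the fit without a clone term 0 of the 5 passed, as did 0% of all genes. In that fit 3 of the 5 (and 709 of all tested genes) had an unadjusted p under 0.05, and over all genes DESeq2 called 57 and limma-voom 0. The 5 log2 fold changes with the clone term were all below 0, with a median of -0.64, beside a median of 0.01 over all tested genes, of which 5732 were below 0.

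KRT18, the type I partner of the founding pair (ENSG00000111057, chromosome 12, 52948871 to 52952901, plus strand, GRCh38), went from 18011 to 12886 reads in WT2, from 15562 to 13850 in WT5 and from 17944 to 9619 in WT37. These are 3311, 2571 and 2505 CPM without DOX and 2067, 1958 and 1351 CPM with DOX. The highest library with DOX lay below the lowest without, so the groups did not overlap. The mean went from 2795 ± 448 to 1792 ± 386 CPM (SD, n = 3 each). With the clone term KRT18 fell by 0.69 on the log2 scale (SE 0.11, edgeR adjusted p = 0.0135), a change of -38.1%, and without the clone term its log2 fold change was -0.67 ± 0.21 SE (adjusted p = 0.605). The call with the clone term was lost when WT2 was left out (-0.68, adjusted p = 0.136) or WT37 (-0.55, adjusted p = 0.199), and it held without WT5 (-0.84, adjusted p = 0.000417). DESeq2 with a clone term also called KRT18 (adjusted p = 1.78e-05), as did limma-voom (0.00936).

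KRT8, the type II partner of KRT18 (ENSG00000170421, chromosome 12, 52897187 to 52949954, minus strand), stood at 1563, 944 and 1102 CPM without DOX in WT2, WT5 and WT37 and at 861, 885 and 604 CPM with DOX. The groups did not overlap here either, but the WT5 libraries differed little. The change with DOX was -44.9% in WT2 and -45.2% in WT37, and -6.23% in WT5. The mean was 1203 ± 322 CPM without DOX and 783 ± 156 CPM with DOX. KRT8 did not pass in the fit with a clone term (log2 fold change -0.65 ± 0.17 SE, edgeR adjusted p = 0.155) or in that without (-0.65 ± 0.24 SE, adjusted p = 0.693). Without WT5 the value with the clone term was -0.92 (adjusted p = 0.000140), while without WT2 or WT37 it was -0.52 and -0.49 (adjusted p = 0.578 and 0.601). In the edgeR fit that does not treat genes of unusual spread apart (without robust estimation), adjusted p was 0.0514, limma-voom with a clone term gave 0.0428, and DESeq2 gave 0.454. Across the edgeR, limma-voom and DESeq2 fits of all libraries with a clone term, the size of the KRT8 change was alike and its side of the threshold was not. Leaving out a clone changed the size too.

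KRT19, the smallest keratin and a type I partner of KRT8 (ENSG00000171345, chromosome 17, 41523617 to 41528308, minus strand), had 1083, 1059 and 1023 CPM without DOX and 830, 911 and 788 CPM with DOX in WT2, WT5 and WT37. Without DOX its libraries were the most alike of the abundant keratins, with a mean of 1055 ± 29.8 CPM, against 843 ± 62.4 CPM with DOX, and the groups did not overlap. The log2 fold change was -0.36 ± 0.09 SE with the clone term (edgeR adjusted p = 0.0718) and -0.36 ± 0.13 SE without it (adjusted p = 0.678), and neither passed. Without WT5 the value with the clone term was -0.44 (adjusted p = 0.0102). Non-overlapping groups with lower values with DOX were seen for KRT8, KRT18 and KRT19, and for 4.56% of all tested genes.

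KRT20, the type I keratin of differentiated enterocytes and goblet cells (ENSG00000171431, chromosome 17, 40875941 to 40885227, minus strand), went from 96 to 63 reads in WT2, from 133 to 136 in WT5 and from 129 to 69 in WT37. These are 17.6, 22.0 and 18.01 CPM without DOX and 10.1, 19.2 and 9.69 CPM with DOX. WT5 with DOX was above WT2 and WT37 without DOX, so the groups overlapped. The mean was 19.2 ± 2.40 CPM without DOX and 13.0 ± 5.39 CPM with DOX. The log2 fold change with the clone term was -0.64 ± 0.19 SE and did not pass (edgeR adjusted p = 0.141), nor did that without the term (-0.59 ± 0.28 SE, adjusted p = 0.858). Without WT5 the value was -0.91 (adjusted p = 0.0158).

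KRT80, a type II keratin found in many epithelia (ENSG00000167767, chromosome 12, 52168996 to 52192000, minus strand), stood at 81.1, 70.5 and 48.7 CPM without DOX and 54.9, 73.4 and 35.7 CPM with DOX in WT2, WT5 and WT37. The groups overlapped, and both WT37 libraries were below the other 4. The mean was 66.8 ± 16.5 CPM without DOX and 54.6 ± 18.9 CPM with DOX. With the clone term the log2 fold change was -0.35 ± 0.14 SE (edgeR adjusted p = 0.295). It went to -0.56 without WT5 (adjusted p = 0.0130) and to -0.22 without WT2 (adjusted p = 0.811).

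The remaining 3 genes had too few reads for the model. KRT7 (ENSG00000135480, chromosome 12, 52232520 to 52252186) went from 14 to 7 reads in WT2, from 9 to 8 in WT5 and from 9 to 9 in WT37, and the groups overlapped. Its mean was 1.77 ± 0.703 CPM without DOX and 1.17 ± 0.0792 CPM with DOX, and the difference was not past the threshold (p = 0.2 by exact permutation of the 6 libraries, two-sided, in a design that cannot go below 0.1). KRT86 (ENSG00000170442, chromosome 12, 52249300 to 52309163) went from 8 to 1 reads in WT2, from 4 to 5 in WT5 and from 8 to 2 in WT37, with overlapping groups. Its mean was 1.08 ± 0.406 CPM without DOX and 0.383 ± 0.287 CPM with DOX, with the same exact p of 0.2. KRT23 (ENSG00000108244, chromosome 17, 40922696 to 40937634) had 5 reads in all, at most 2 in a library. At this depth a difference in these genes was not detectable. Where KRT23 had 0 reads, the upper limit of 3 reads corresponds to 0.551, 0.481 and 0.419 CPM in WT2 without DOX, WT2 with DOX and WT37 without DOX, for counting error only. The bars in the plot of levels are two-sided 95% intervals and reach higher there, to 0.678, 0.592 and 0.515 CPM.

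The change with DOX was also taken within each clone. Each clone has 1 library per condition, so the change within a clone has a counting interval but no replicate, and the difference in response between clones was not tested. KRT18 had a log2 ratio of DOX to no DOX of -0.68 in WT2 (95% counting interval -0.71 to -0.65), -0.39 in WT5 (-0.43 to -0.36) and -0.89 in WT37 (-0.93 to -0.85). KRT8 had -0.86 in WT2 (-0.91 to -0.81), -0.09 in WT5 (-0.14 to -0.04) and -0.87 in WT37 (-0.92 to -0.81). In both genes the value in WT5 was the nearest to 0, and its interval met neither of the others. KRT19 kept closer together, with -0.38 in WT2 (-0.44 to -0.33), -0.22 in WT5 (-0.27 to -0.17) and -0.38 in WT37 (-0.43 to -0.33). For KRT19 too, WT5 was the nearest to 0 and its interval met neither of the others at this scaling. With all reads, counted in genes or not, as library size, KRT19 had -0.37 in WT2 and -0.28 in WT5. Those values lie closer together, so the separation of the KRT19 intervals depends on the scaling. KRT20 had -0.80 (-1.29 to -0.33), -0.19 (-0.55 to 0.16) and -0.89 (-1.34 to -0.46) in the same order. For KRT80 the values were -0.56 (-0.77 to -0.36), 0.06 (-0.13 to 0.25) and -0.45 (-0.69 to -0.21), and that in WT5 was -0.0051 when scaled to all rows of the table. The WT5 intervals of KRT20 and KRT80 include 0. Over all tested genes WT2 had a median log2 ratio of 0.04 and WT37 of 0.07 (on CPM + 0.5), with 44.5% and 40.6% of genes lower with DOX, against 50% for WT5. KRT8, KRT18, KRT19 and KRT20 were lower with DOX in all 3 clones, as were 13.8% of all tested genes.

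**Figure D2:**
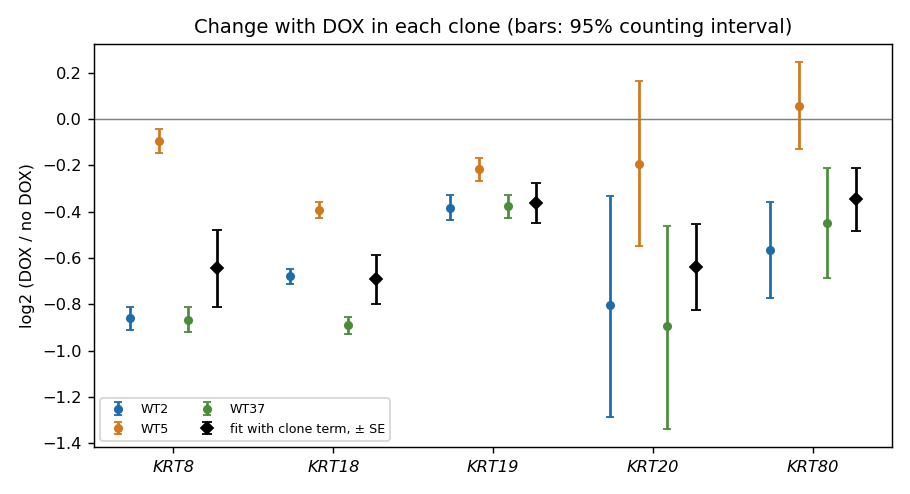
Log2 ratio of the level with DOX to that without (vertical axis) for the 5 tested keratins. Circles are single clones with 95% counting intervals, and black diamonds are the edgeR fit with a clone term ± SE. In each of the 5 genes the WT5 circle is the nearest to or above 0, and the largest gap between clones is that of KRT8.

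The balance between the partners was also compared, as ratios of reads within a library, a comparison chosen after the values were seen. KRT18 reads outnumbered KRT8 reads 2.12, 2.72 and 2.27 times without DOX and 2.40, 2.21 and 2.24 times with DOX in WT2, WT5 and WT37. The ratio went up in WT2, down in WT5 and hardly moved in WT37, with means of 2.37 ± 0.314 and 2.28 ± 0.103 (exact permutation test of log2 ratios, 3 against 3 libraries, two-sided p = 0.8, adjusted p = 0.8 over 3 ratios). KRT19 relative to KRT18 stood at 0.327, 0.412 and 0.409 without DOX and at 0.401, 0.465 and 0.583 with DOX, higher with DOX in 3 of 3 clones. The groups overlapped, and the difference did not pass (exact permutation p = 0.3, adjusted p = 0.6). Exact sign flips of the 3 differences within clones, which keep the pairing, gave p = 0.25 for this ratio (adjusted p = 0.75 over 3 ratios). With 3 clones 0.25 is the smallest p they can give, and 0.1 is the smallest for the unpaired test, so neither could pass. KRT19 relative to KRT8 was 0.692, 1.12 and 0.929 without DOX and 0.964, 1.03 and 1.30 with DOX, higher in 2 of 3 clones (exact permutation p = 0.4, adjusted p = 0.6). KRT19 made up 17.9%, 22.7% and 21.8% of the reads of the 8 genes without DOX and 21.7%, 23.7% and 28.2% with DOX.

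**Figure D3:**
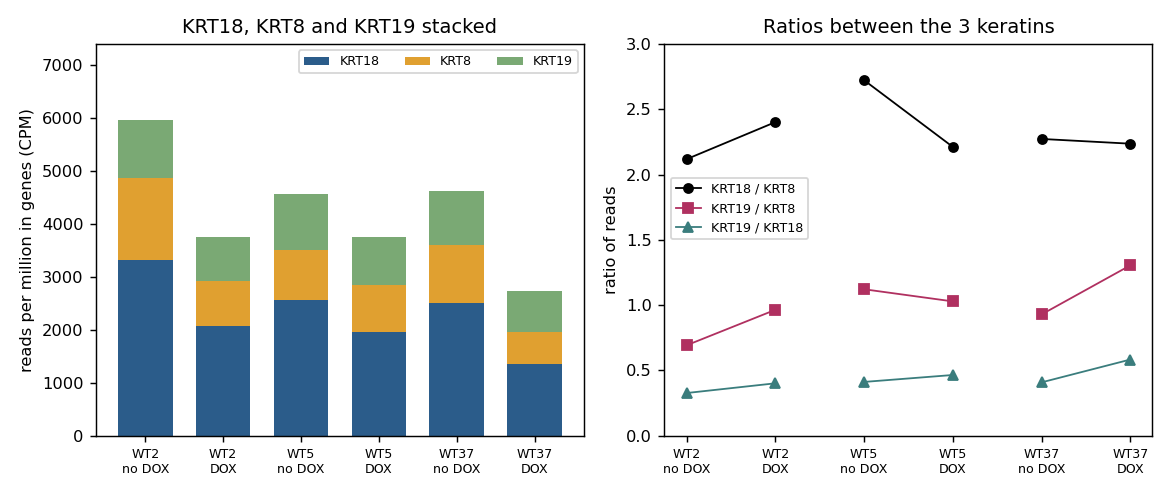
Left, stacked levels of KRT18, KRT8 and KRT19 in CPM for each library. Right, ratios of reads between these genes, with lines joining the libraries of a clone. The stack is lowest in WT37 with DOX, and KRT19 / KRT18 is higher with DOX in each clone, from 0.409 to 0.583 in WT37.

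Between clones, with DOX as a covariate and one DOX effect assumed for every clone, KRT80 and KRT18 differed, 2 of the 5 tested genes, where 6.84% of all tested genes differed. KRT80 averaged 68.0 CPM for WT2, 72.0 for WT5 and 42.2 for WT37, over 2 libraries per clone (edgeR test of the clone term, adjusted p = 0.0144). It was lower in WT37 than in WT2 (log2 difference -0.80 ± 0.17 SE, adjusted p = 0.0197, where 5.83% of all tested genes differed) and lower than in WT5 (-0.87 ± 0.17 SE, adjusted p = 0.0126, where 5.92% differed). Between WT5 and WT2 the difference was 0.07 ± 0.16 SE (adjusted p = 0.914, where 1.02% differed). All 4 libraries of WT2 and WT5 had more KRT80 than either WT37 library, and without WT37 the clone term gave adjusted p = 0.954.

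The KRT18 averages were 2689 CPM for WT2, 2265 for WT5 and 1928 for WT37 (edgeR test of the clone term, adjusted p = 0.0342). Here and for the other genes, averages are plain CPM, while fitted differences use library sizes scaled by TMM. Fitted differences therefore need not equal those between the averages. WT37 was below WT2 by a log2 difference of -0.62 ± 0.13 SE (adjusted p = 0.0194), while WT37 against WT5 (-0.37 ± 0.13 SE, adjusted p = 0.117) and WT5 against WT2 (-0.25 ± 0.13 SE, adjusted p = 0.498) did not pass. The call on the clone term was lost without WT2 (adjusted p = 0.194) and without WT37 (0.569). KRT8 did not differ past the threshold among clones (mean 1212, 915 and 853 CPM, adjusted p = 0.193, and 0.00109 without WT5). KRT20 had means of 13.9, 20.6 and 13.8 CPM (adjusted p = 0.114), with WT37 minus WT5 at -0.70 ± 0.22 SE (adjusted p = 0.0832). KRT19 was the most even, with 956, 985 and 906 CPM (adjusted p = 0.339), and its 3 differences between clones lay between -0.21 and 0.01, each with an SE of 0.11.

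**Figure D4:**
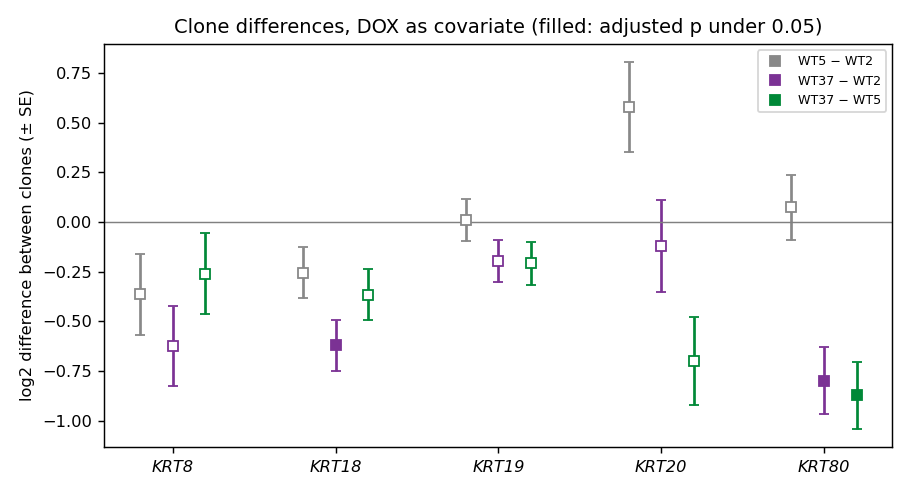
Log2 difference between pairs of clones (vertical axis, ± SE) for the 5 tested keratins, from the edgeR fit with DOX as a covariate. Filled squares passed an adjusted p of 0.05 and open squares did not. The filled ones are KRT80 in WT37 against both other clones and KRT18 in WT37 against WT2.

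KRT18 was the most abundant keratin in all 6 libraries. KRT8 and KRT19 exchanged places: KRT8 was above KRT19 in WT2 and WT37 without DOX and in WT2 with DOX, and KRT19 was above KRT8 in the other 3 libraries. KRT80 was above KRT20 in all 6. Over the 6 libraries, log2 CPM of KRT8 and KRT18 correlated with Pearson r = 0.97, KRT18 and KRT19 with 0.96, KRT8 and KRT19 with 0.91 and KRT20 with KRT8 with 0.65. These values describe 6 libraries from 3 clones, which share their clone and DOX, and 235 of 11732 genes had r above 0.9 with KRT18. Outside the keratins, the genes most like KRT18 were RBM6 (r = 0.9996), LRRC69 and AC127521.1. USP37, MBD1 and CIAO2A were most like KRT8 (r = 0.996 to 0.987), and MACC1, F11R and BZW2 most like KRT19 (0.994 to 0.991). None of these 9 passed for DOX in the fit with a clone term (adjusted p from 0.0670 to 0.696).

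Several keratin genes share sequence with other genes, which limits these counts. KRT18 and KRT8 lie head to head, and their annotated spans overlap by 1084 bases with exons on opposite strands. Of the 50-base words in the last 300 bases of the protein-coding transcripts (GENCODE 29), 25.6% for KRT8 and 21.0% for KRT18 also occur in transcripts of other genes, 29 and 11 genes in number, pseudogene copies among them. The share was 3.19% for KRT19 and 50% for KRT86, whose words recur in the hair keratin KRT81, and it was 0% for KRT7, KRT20, KRT23 and KRT80. Reads with several places were 11.8% to 16.0% of all reads and were kept apart from the gene rows. The table has 80 keratin pseudogene rows, of which 20 were at 0, and KRT18P8, KRT18P11, KRT18P10, KRT18P13, KRT18P54 and KRT18P55 exceeded 10 reads in a library. KRT18P8 went from 75 to 60 reads in WT2, from 67 to 54 in WT5 and from 89 to 55 in WT37, and KRT18P11 from 48 to 23, 41 to 27 and 41 to 26. The 58 KRT18 copies summed to 40.1, 32.0 and 32.8 CPM without DOX and 25.7, 22.6 and 18.7 CPM with DOX in WT2, WT5 and WT37, lower with DOX in each clone as KRT18 was. The sum of the 19 KRT8 copies rested on few reads and went from 1.84 to 2.57 CPM in WT2, 1.65 to 2.26 in WT5 and 1.40 to 2.25 in WT37. KRT8P12, the KRT8 copy with most reads (22 in all), went from 1 to 6, 2 to 5 and 2 to 6 reads. KRT8P3 went from 2 to 2, 4 to 3 and 3 to 3 reads and KRT8P33 from 2 to 2, 2 to 1 and 2 to 0, so not every copy rose. Whether the reads on the KRT18 and KRT8 copies come from the copies or from KRT18 and KRT8 themselves was not tested.

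Of the 19 other keratins, 14 had at most 10 reads in every library, and 3 were tested. Among these 3, 0 rose and 0 fell in the fit with a clone term (edgeR, 2 at an unadjusted p under 0.05, 0 by DESeq2 and 0 by limma-voom). KRT10, a type I keratin known from differentiated epidermis, was more abundant than KRT80 and KRT20 in all 6 libraries and went from 121 to 108 CPM in WT2, from 110 to 81.3 in WT5 and from 139 to 134 in WT37. Its log2 fold change was -0.25 ± 0.10 SE (adjusted p = 0.310), and its exons overlap TMEM99 on the opposite strand. KRT34, a hair keratin, went from 16 to 13 reads in WT2, from 19 to 30 in WT5 and from 12 to 48 in WT37 (0.70 ± 0.41 SE, adjusted p = 0.511). KRT71, a hair follicle keratin, went from 12 to 5, 25 to 23 and 35 to 13 reads (-0.999 ± 0.36 SE, adjusted p = 0.248).

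Genes for proteins that anchor or organise keratin filaments did not pass the test. Of 17 such genes 16 were tested, 13 had a log2 fold change below 0 with a median of -0.13, and 0 rose and 0 fell in the fit with a clone term (5 at an unadjusted p under 0.05, 0 by DESeq2 and 0 by limma-voom). DSP, the desmosomal plakin that ties keratins to junctions, had 271, 283 and 317 CPM without DOX and 219, 255 and 238 CPM with DOX in WT2, WT5 and WT37 (-0.33 ± 0.09 SE, edgeR adjusted p = 0.138). PPL (periplakin) had -0.63 ± 0.17 SE and PLEC (plectin) 0.36 ± 0.14 SE, with adjusted p of 0.137 and 0.285. Among other intermediate filament genes 5 of 11 found in the table were tested, and 0 rose and 0 fell (2 at an unadjusted p under 0.05, 0 by DESeq2 and 0 by limma-voom). LMNA, the nuclear lamin A/C gene, had 594 ± 157 CPM without DOX and 766 ± 137 CPM with DOX (0.35 ± 0.10 SE, adjusted p = 0.137). VIM, which encodes the mesenchymal filament protein vimentin, stayed under the filter. It went from 1 to 5 reads in WT2, from 3 to 8 in WT5 and from 5 to 15 in WT37, higher with DOX in all 3 clones and not tested, against at least 9619 reads for KRT18.

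Of 21 transcription factors known for keratin or epithelial genes, 18 were tested, 1 rose and 0 fell in the fit with a clone term (7 at an unadjusted p under 0.05, 2 by DESeq2 and 1 by limma-voom), with a median of -0.24. The riser was CDX2, the intestinal homeobox factor, from 503 ± 84.7 to 695 ± 157 CPM (0.42 ± 0.09 SE, edgeR adjusted p = 0.0464). GRHL2, a grainyhead factor of epithelial genes, went from 46.6 ± 6.55 to 29.1 ± 7.71 CPM without passing (-0.73 ± 0.16 SE, adjusted p = 0.0591). Markers of the colon epithelium summed to 2082 to 2242 CPM without DOX and 1707 to 1906 CPM with DOX, with CDX1 at 0 and LGALS4 at 11 reads or fewer in a library. Of 4 tested among 6, CDX2 rose and EPCAM fell (-0.73 ± 0.12 SE, edgeR adjusted p = 0.0230). The log2 fold change was below 0 in 3 of the 4, all 4 had an unadjusted p under 0.05, DESeq2 called 4 and limma-voom 2. CDH1 (E-cadherin) had -0.54 ± 0.14 SE and VIL1 (villin) -1.97 ± 0.50 SE, with edgeR adjusted p of 0.141 and 0.142. Markers of stratified epithelium (4 of 5 in the table) summed to at most 0.368 CPM without DOX and 0.566 CPM with DOX, and fibroblast markers (5 of 6) to at most 1.81 and 1.83 CPM. Endothelial markers (2 of 4) reached at most 0.496 and 0.160 CPM, and leukocyte markers (4 of 5) lay between 4.23 and 9.07 CPM without DOX and 4.65 and 10.5 CPM with DOX, mostly from CD14, with LYZ at 0. Of the stratified, fibroblast and endothelial lists, TP63, COL1A2 and PECAM1 were at 0 in all 6 libraries. Other genes of these lists had a few reads, at most 9 in a library for PDGFRB, 6 for COL1A1 and 3 for KRT4 and VWF. The part of other cells in the keratin differences was not otherwise tested.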

How the data were processed

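The libraries were made with a QuantSeq 3' mRNA kit, per the labels' protocols, and the authors deposited raw counts of reads per gene in 1 table. The submitters' processing notes name GRCh38 and DESeq2. Aligner, counter, annotation and use of strand: not given in the sources used here. Its 4 summary rows stayed out of library sizes and tests: unmapped (4.29% to 5.25% of reads), multimapping (11.8% to 16.0%), outside features (8.72% to 11.7%) and ambiguous (6.86% to 7.40%). Symbols of the 8 keratins came from a table of Ensembl identifiers, positions from GENCODE 29.

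Tests used edgeR 4.0.16 in R 4.3.3 (TMM, filterByExpr, quasi-likelihood with robust estimation, Benjamini-Hochberg adjustment over 11732 genes, threshold 0.05), with limma 3.58.1 and DESeq2 1.42.0 as alternatives. Robust estimation was chosen after both forms had been seen, to match earlier processing of this table. The stated main fit has no clone term. The labels tie both libraries of a number to 1 clone, and their deviations from the group means correlated (r = 0.49 in WT2, 0.28 in WT5, 0.53 in WT37), so the clone pairs the samples and blocked values are printed. SE was taken from the fold change and its F statistic. Libraries within a group differed by 6.61 to 20.2 times the chi-square expected from counting noise. The scripts were tested on simulated data. Counting intervals are 95% and cover counting error only. The members and lists were chosen with earlier results of these data known. Named genes are the 8 keratins, other keratins past the filter, pseudogenes above 10 reads, list genes past the threshold within clones and the 3 genes most correlated with KRT8, KRT18 and KRT19. Further list genes, among them DSP, PPL, PLEC, LMNA, VIM and GRHL2, were chosen after their values were seen.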

Additional observations from a re-analysis of the deposited data

How the results depend on the processing

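In the model fits, no fold change of the 5 tested keratins reversed. With DOX and no replicate block, 0 genes passed; the replicate block gave 152, no filter 206, DESeq2 57, and leaving out a clone or library 0 to 35 (35 when WT5 with DOX was removed). Under the replicate block, 152 passed; no filter gave 518, no replicate block 0, and leaving out a clone 5 to 743. For the clone effect, 802 passed; no filter gave 1783, DESeq2 441, and leaving out a clone 129 to 1788. The fit without robust estimation, added after seeing the data, gave 183 within clones. With no filter and a clone term, KRT8, KRT19 and KRT20 passed as well as KRT18 (adjusted p = 2.27e-08, 0.0116, 0.0227 and 1.53e-10), and without a clone term KRT8 and KRT18 passed (0.00319 and 0.00207). In the clone test, no filter brought KRT8 and KRT20 past the threshold (adjusted p = 2.94e-05 and 0.0317). The cause was not tested. For KRT20, 0 CACCTG matches lay in the 100 bases before the start. Scaling by TMM or by all rows moved 8 of 38 changes within single clones beyond their counting interval, with KRT8 in WT5 at -0.15 on all rows. Signs changed in 2 values near 0: KRT80 in WT5, from 0.06 to -0.0051 on all rows, and KRT7 in WT37, from 0.0088 to -0.068 by TMM and -0.033 on all rows. Depth limits KRT7, KRT86 and KRT23, at most 14 reads in a library.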
